A study of Mus musculus with 6 samples.

Results

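The genes described here are 10 transcriptional targets of the tumour suppressor p53, measured by RNA-seq in the epithelial fraction of the mouse colon. They were chosen by symbol: Cdkn1a, Mdm2, Ccng1, Bbc3, Bax, Trp53inp1, Zmat3, Phlda3, Eda2r and Sesn1. All 10 are among the 15138 genes of the authors' comparison table, and their raw counts come from a table of 46078 genes, of which 16856, including all 10, had enough counts to be tested. The libraries came from 2-month-old mice kept without treatment, 3 labelled wild type and 3 labelled Lingo3-/-. Lingo3 is the gene of a membrane protein built of leucine-rich repeats. Total RNA was sequenced after removal of ribosomal RNA. The sources used here do not give the strain, the sex or the construction of the Lingo3 allele. They do not say whether each library came from a separate animal either, so that p-values reflect how far libraries of a group differ, part of which may be technical.

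The transcription factor p53 is kept scarce in unstressed cells because Mdm2, a ubiquitin ligase and itself a p53 target, marks it for degradation. DNA damage and other stresses interrupt that loop, and p53 then binds paired decamers in promoters and introns and raises genes that stop the cell cycle, start apoptosis, or adjust metabolism and growth signalling. In the intestine the response is known best from irradiated crypts, where Bbc3 (PUMA) drives the death of progenitor cells and Cdkn1a (p21) restrains their division.

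Matches to the p53 half-site just upstream of the members' start sites are printed here as a description of these sequences. RefSeq promoter windows of GRCm38.p6, 250 bases before to 50 bases after a start, were at hand for 8 of the 10 members, with none for Trp53inp1 or Zmat3. They were searched for the p53 half-site consensus, which reads the same on both strands. Of the 8 members, 5 held at least 1 exact match in some window (62.5%), against 2582 of 27025 genes (9.55%) overall. By window, 8.36% of 32851 windows held a match. In the stretches below, written 5′ to 3′ on the gene's own strand and ending upstream of the transcript start, capitals mark the half-sites. The upstream stretch of Ccng1, the member that rose, is shown at greatest length, and the other 4 show each match with its flanks.
Ccng1, chr11:40755312-40755536, minus strand: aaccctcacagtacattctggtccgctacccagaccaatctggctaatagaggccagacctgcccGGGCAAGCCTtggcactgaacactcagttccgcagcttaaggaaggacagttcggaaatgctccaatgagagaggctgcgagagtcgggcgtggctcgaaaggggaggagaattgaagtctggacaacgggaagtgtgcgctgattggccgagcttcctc
Cdkn1a, chr17:29090881-29090962, plus strand: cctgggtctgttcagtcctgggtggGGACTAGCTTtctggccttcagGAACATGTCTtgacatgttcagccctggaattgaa
Mdm2, chr10:117710910-117710969, minus strand: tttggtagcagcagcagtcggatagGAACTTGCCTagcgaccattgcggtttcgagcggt
Bax, chr7:45467065-45467124, minus strand: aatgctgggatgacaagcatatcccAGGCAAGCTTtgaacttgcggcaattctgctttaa
Sesn1, chr10:41887241-41887300, plus strand, at the start site inside the gene: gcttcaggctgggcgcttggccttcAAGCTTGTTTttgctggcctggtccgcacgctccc
Counted from the start used by the RefSeq window, the half-site of Ccng1 lay 185 to 176 bases upstream, that of Mdm2 186 to 177 bases and that of Bax 201 to 192 bases. The printed stretch of Ccng1 stops 26 bases upstream of that start, because its GENCODE gene model already begins at 40755311. Cdkn1a had 2 exact half-sites separated by 12 bases in the window of its upstream start, and 0.0731% of all windows held 2 at most 13 bases apart. Directly after the second of them, a stretch of the same length departs from the consensus only at its first base. The exact search left it unmarked, so the 2 marked sites need not be the pair that p53 would use. A half-site with at most 1 mismatch was found in 70% of all windows. The other window of Cdkn1a, at a start inside the gene (chr17:29093519-29093818), held no exact match, and neither did the other window of Sesn1 (chr10:41810324-41810623). The windows of Bbc3, Eda2r and Phlda3 held no exact match, which says only that these letters are not in the windows searched. A match is a description of the sequence and not a measurement of p53 binding.

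The libraries differed in depth and make-up between the genotypes. Counts over genes ran from 25010618 to 28029583 in wild type and from 11868000 to 17200931 in knockout, and transcripts of the mitochondrial genome took 45.3 to 48.4% of them in wild type and 34.7 to 36.3% in knockout. All 10 epithelial markers were tested, of which 1, Krt18, was higher in knockout and 0 were lower, with a summed level of 5477 to 6528 CPM (read counts scaled to a common library size) in wild type and 6382 to 7807 CPM in knockout. Over all genes tested, 9.43% were higher and 5.97% lower in knockout at the same edgeR adjusted p under 0.05. Of 16 T cell and intraepithelial lymphocyte markers, 14 were lower in knockout, with a summed level of 362 to 417 CPM in wild type and 127 to 224 CPM in knockout, and none of them was at 0. Of 9 tested B cell and plasma cell markers 5 were lower, with a summed level of 59.4 to 119 CPM in wild type and 31.4 to 38.4 CPM in knockout, and of 4 tested endothelial markers 2 were lower. Of 9 tested macrophage and dendritic cell markers 1, Cd14, was higher and 1, Itgax, was lower. Their summed level was 87.6 to 105 CPM in wild type and 66.6 to 236 CPM in knockout. Of 7 fibroblast markers 1, Thy1, was lower and 6 did not pass, with a summed level of 347 to 1002 CPM in wild type and 228 to 470 CPM in knockout. Of 5 tested smooth muscle markers 1 was lower. The targeted gene Lingo3 had 3, 3 and 1 counts in wild type and 2, 0 and 1 counts in knockout, too few to check the labels. In the labels, the cells of wild type replicate 1 were washed off with EDTA and DTT and those of the other 5 libraries with EDTA.

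Knockout and wild type libraries were compared to ask whether p53 target transcripts differ when Lingo3 is deleted. Of the 10 genes, 1 rose and 0 fell at an adjusted p under 0.05. The gene that rose was Ccng1, by 1.39-fold, and the other 9 did not pass the test. Among all 16856 genes tested, 9.43% rose and 5.97% fell, and 15.4% passed in either direction, beside 1 of 10 members. At an unadjusted p under 0.05, 2 of the 10 passed (Ccng1 and Cdkn1a), against 31.2% of all genes. Calls come from the quasi-likelihood test of edgeR, with p-values adjusted over all genes by the Benjamini-Hochberg method. The median log2 fold change of the members was -0.11, with -0.03 over all genes, and the median size of the change without its sign was 0.13, against 0.26 over all genes. These are bulk libraries, in which fewer cells of a type and less RNA per cell cannot be told apart.

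**Figure D1:**
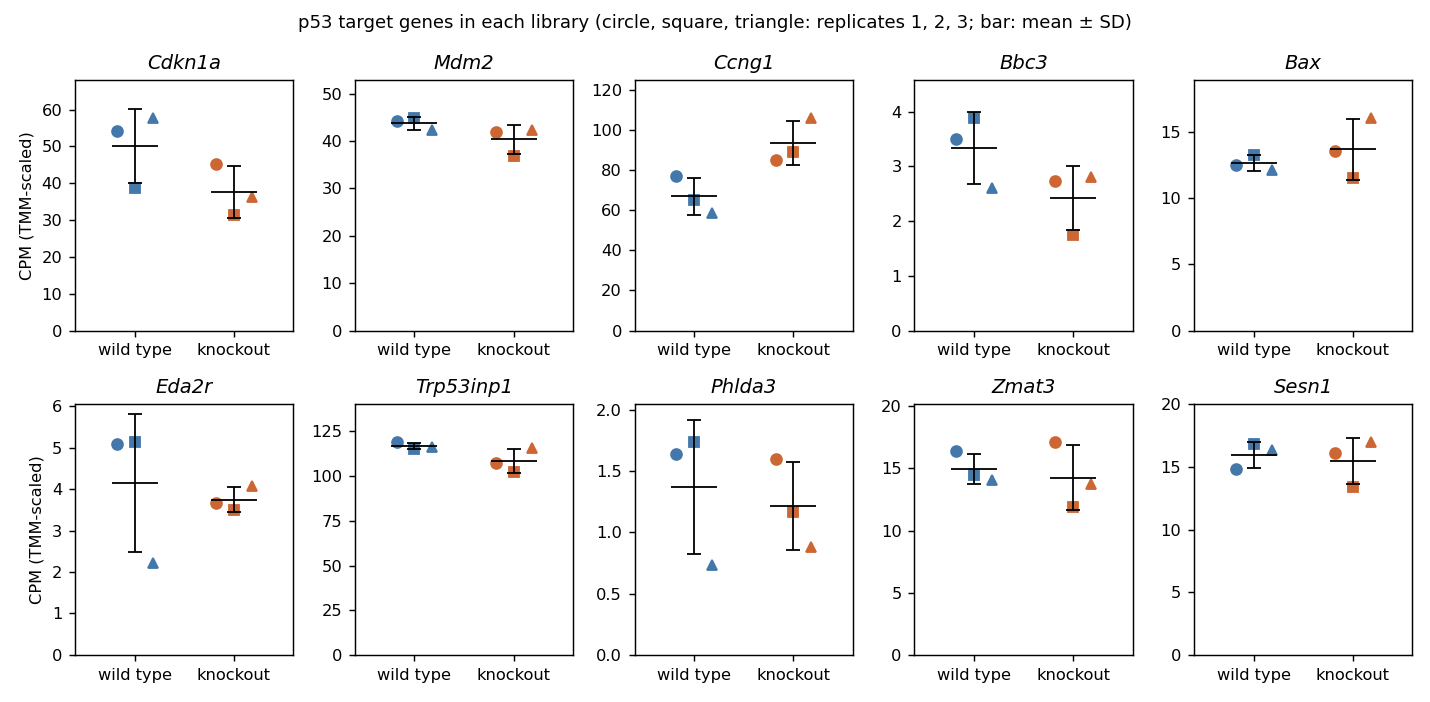
Level of each p53 target gene in every library, in CPM after TMM scaling (vertical axes, each from 0), with wild type in blue and Lingo3 knockout in orange, symbols for replicates 1 to 3 and bars for the mean ± SD of 3 libraries. Ccng1 is the gene whose 3 knockout libraries all lie above its 3 wild type libraries, and in the other 9 genes the groups overlap.

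Ccng1 and Mdm2 act back on p53 itself. Ccng1 (ENSMUSG00000020326) encodes cyclin G1, which brings the phosphatase PP2A to Mdm2, and lies on chromosome 11 from 40755311 down to 40748552 (GRCm38, minus strand). It stood at 76.9, 65.3 and 58.7 CPM in wild type replicates 1, 2 and 3 and at 85.0, 89.3 and 106 CPM in knockout replicates 1, 2 and 3, from 1325 to 1731 raw counts per library. Every knockout library was above every wild type library, a separation in this direction that 19.7% of all genes showed, and 0 of the members had all knockout libraries below all wild type libraries (16.0% of all genes). The means were 66.9 ± 9.21 CPM and 93.4 ± 11.1 CPM (SD, n = 3), which gave a log2 difference of 0.48 ± 0.12 (SE; edgeR adjusted p = 0.0217) with a 95% interval of 0.22 to 0.74. In the authors' deposited table, made from the same counts with DESeq2, the log2 fold change of Ccng1 was 0.50 with an adjusted p of 0.00674, and 16.7% of its genes passed the same threshold in either direction. The call rested on single libraries: it was lost when wild type replicate 2 was left out (edgeR adjusted p = 0.0514), and likewise for wild type replicate 3 (0.0628) and knockout replicate 3 (0.0965), with log2 fold changes of 0.38 to 0.61 over the fits that each left out 1 library. Without wild type replicate 1, whose wash is labelled differently, the log2 fold change was 0.61.

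Mdm2 (ENSMUSG00000020184), on chromosome 10 from 117710758 down to 117688875, held nearly the same level in all libraries. It stood at 44.3, 44.9 and 42.2 CPM in wild type and 41.9, 36.8 and 42.3 CPM in knockout replicates 1, 2 and 3. Knockout replicate 2 was the lowest library, and the groups overlapped. The log2 fold change was -0.12 ± 0.09 (SE; edgeR adjusted p = 0.408), and its 95% interval corresponded to 0.799-fold to 1.06-fold of the wild type level. The Mdm2 paralog Mdm4, which binds p53 without degrading it, stood at 129 ± 15.1 CPM in wild type and 110 ± 5.60 CPM in knockout (SD, n = 3) and did not pass (log2 fold change -0.22, edgeR adjusted p = 0.182).

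Cdkn1a (ENSMUSG00000023067), on chromosome 17 from 29090976 to 29100727 on the plus strand, encodes p21, the inhibitor of cyclin-dependent kinases through which p53 halts division. It stood at 54.1, 38.8 and 57.7 CPM in wild type replicates 1, 2 and 3 and at 45.3, 31.5 and 36.4 CPM in knockout replicates 1, 2 and 3. The highest libraries were wild type replicates 1 and 3, but knockout replicate 1 lay above wild type replicate 2. The log2 fold change was -0.41 ± 0.18 (SE; edgeR adjusted p = 0.151), with an interval of -0.81 to -0.01 before adjustment for multiple testing. The call depended on the setting, and Cdkn1a passed in 3 of 15 alternatives. It did not pass by DESeq2 (-0.41, adjusted p = 0.0886) or limma-voom (-0.41, adjusted p = 0.166), nor in the authors' deposited table (-0.40, DESeq2 adjusted p = 0.104). Among the fits it passed were that without wild type replicate 2 (log2 fold change -0.54, edgeR adjusted p = 0.0339) and that with no filter on low counts (-0.40, edgeR adjusted p = 0.00428). The log2 fold change moved towards 0 without wild type replicate 3 (-0.28, edgeR adjusted p = 0.368). With library totals only it was -0.12 (edgeR adjusted p = 0.625), a scaling under which the median of all genes was 0.26 in place of -0.03. An unclassified transcript annotated on the opposite strand covers 7.68% of the exons of Cdkn1a, and the sources used here do not state whether the counting used strand.

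The genes whose profile over the 6 libraries lay nearest to that of Cdkn1a, among 12712 others with a named symbol and a mean of at least 1 CPM, were Cndp2, Zfp37, Fosl2, Adm and Peg3. Their distances were 0.19 to 0.23 on the log2 scale, over profiles of log2 CPM centred on each gene's mean. Cndp2, a peptidase gene, stood at 47.1 and 34.1 CPM on average in wild type and knockout. Fosl2, the gene of an AP-1 transcription factor subunit, stood at 266 and 196 CPM (log2 fold change -0.44). The profiles by which these 5 genes were picked include the difference between the genotypes. Their lower levels in knockout follow from that choice and are no separate result.

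**Figure D2:**
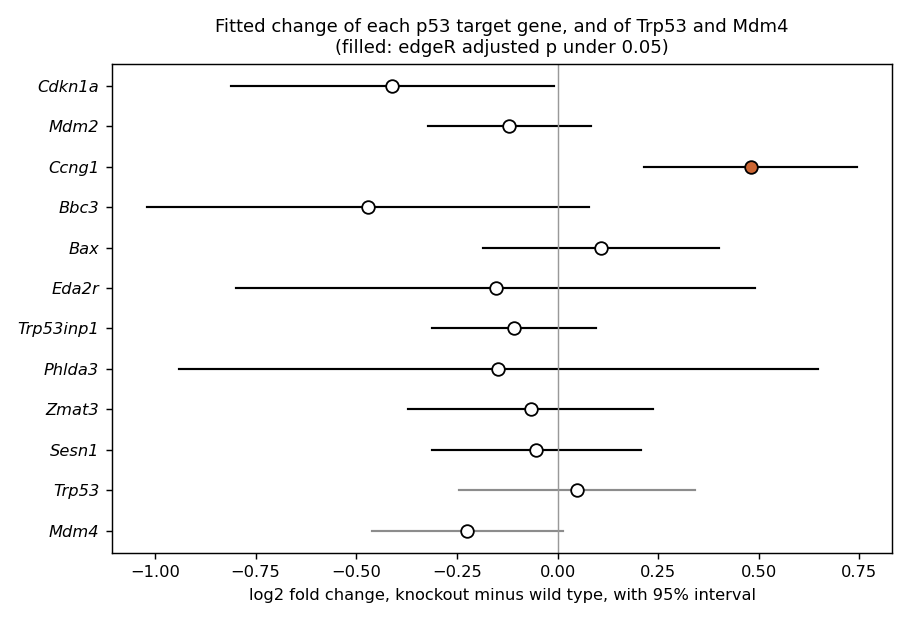
Log2 fold change (knockout minus wild type, horizontal axis) of the 10 p53 target genes and, in grey, of Trp53 and Mdm4, with 95% intervals from the edgeR fit on 3 libraries per genotype. Ccng1 at 0.48 is the filled point, past an adjusted p of 0.05, and the intervals of Bbc3, Eda2r and Phlda3 are wide.

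The apoptosis genes did not pass the test. Bbc3 (ENSMUSG00000002083, chromosome 7 from 16308393 to 16318205), whose product PUMA frees Bax from its inhibitors, stood at 3.51, 3.88 and 2.60 CPM in wild type and 2.73, 1.75 and 2.80 CPM in knockout replicates 1, 2 and 3. Wild type replicates 1 and 2 were the highest, and wild type replicate 3 lay within the knockout range. With 33 to 103 raw counts per library, its log2 difference of -0.47 ± 0.25 (SE; edgeR adjusted p = 0.224) had an interval from -1.02 to 0.08.

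Bax (ENSMUSG00000003873), which forms pores in the outer mitochondrial membrane, lies on chromosome 7 from 45466898 down to 45461697. It stood at 12.5, 13.3 and 12.1 CPM in wild type and 13.5, 11.5 and 16.1 CPM in knockout replicates 1, 2 and 3. The knockout libraries spread around the narrow wild type range, above it in replicates 1 and 3 and below it in replicate 2. The log2 fold change was 0.11 ± 0.13 (SE; edgeR adjusted p = 0.616), and it was -0.010 without knockout replicate 3. With library totals only, Bax passed (log2 fold change 0.39, edgeR adjusted p = 0.0464). The gene model Gm45808 shares 12.2% of the exonic bases of Bax on the same strand, where a read cannot be assigned to either.

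Eda2r (ENSMUSG00000034457, chromosome X from 97377216 down to 97333840) encodes the receptor of the ectodysplasin isoform EDA-A2. It stood at 5.10, 5.13 and 2.21 CPM in wild type and 3.66, 3.50 and 4.08 CPM in knockout replicates 1, 2 and 3. All 3 knockout libraries fell between wild type replicate 3 and the other wild type libraries. Its log2 fold change was -0.15 ± 0.29 (SE; edgeR adjusted p = 0.755), and it turned to 0.032 without wild type replicate 1 and to 0.057 without wild type replicate 2.

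Trp53inp1 (ENSMUSG00000028211, chromosome 4 from 11156431 to 11174379) encodes a stress-induced nuclear protein that favours p53-dependent death. It was among the most evenly measured members, at 119, 115 and 116 CPM in wild type and 107, 102 and 116 CPM in knockout replicates 1, 2 and 3. Knockout replicates 1 and 2 lay below the wild type range and knockout replicate 3 within it. The log2 fold change was -0.11 ± 0.09 (SE; edgeR adjusted p = 0.454), with an interval of 0.805-fold to 1.07-fold.

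The remaining members act in growth signalling, RNA binding and stress metabolism. Phlda3 (ENSMUSG00000041801, chromosome 1 from 135766119 to 135769136) encodes a small pleckstrin homology protein that keeps the kinase Akt from the membrane. It had 35, 46 and 17 counts in wild type and 31, 22 and 11 counts in knockout replicates 1, 2 and 3, or 0.737 to 1.73 CPM and 0.880 to 1.596 CPM. The groups overlapped nearly completely, and the log2 difference of -0.15 ± 0.36 (SE; edgeR adjusted p = 0.814) had an interval of 0.521-fold to 1.57-fold, the widest on the log2 scale of the 10 genes.

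Zmat3 (ENSMUSG00000027663, chromosome 3 from 32366014 down to 32334792), the gene of a zinc finger protein that binds RNA, stood at 16.4, 14.5 and 14.1 CPM in wild type and 17.1, 11.9 and 13.8 CPM in knockout replicates 1, 2 and 3. The knockout group held both the highest and the lowest library. Its log2 fold change was -0.07 ± 0.14 (SE; edgeR adjusted p = 0.781).

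Sesn1 (ENSMUSG00000038332, chromosome 10 from 41809935 to 41908424) encodes sestrin 1, an inhibitor of the growth regulator mTORC1. It stood at 14.8, 16.8 and 16.3 CPM in wild type and 16.1, 13.4 and 17.0 CPM in knockout replicates 1, 2 and 3. Knockout replicate 2 was the lowest and knockout replicate 3 the highest library. The log2 fold change was -0.05 ± 0.12 (SE; edgeR adjusted p = 0.797), with an interval of 0.805-fold to 1.15-fold.

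The resting levels of the members spanned a wide range, here compared as CPM per kilobase of merged exons and averaged over the 6 libraries. Ccng1 was the highest at 22.8, followed by Trp53inp1 at 17.4 and Cdkn1a at 12.4. Bax at 8.36 and Mdm2 at 8.28 came next, then Sesn1 at 3.95. Bbc3 at 1.36, Zmat3 at 1.28, Phlda3 at 0.829 and Eda2r at 0.670 were the lowest. Among tested protein-coding genes these levels ranged from the 92.3rd percentile for Ccng1 to the 17.3rd for Eda2r. Neighbours in the order were not always separate. Bax was above Mdm2 in 3 of 6 libraries and Bbc3 above Zmat3 in 3 of 6, so neither pair can be ordered. Ccng1 was above Trp53inp1 in 5 of 6 libraries and Phlda3 above Eda2r in 5 of 6, and each other gene was above the next in all 6.

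**Figure D3:**
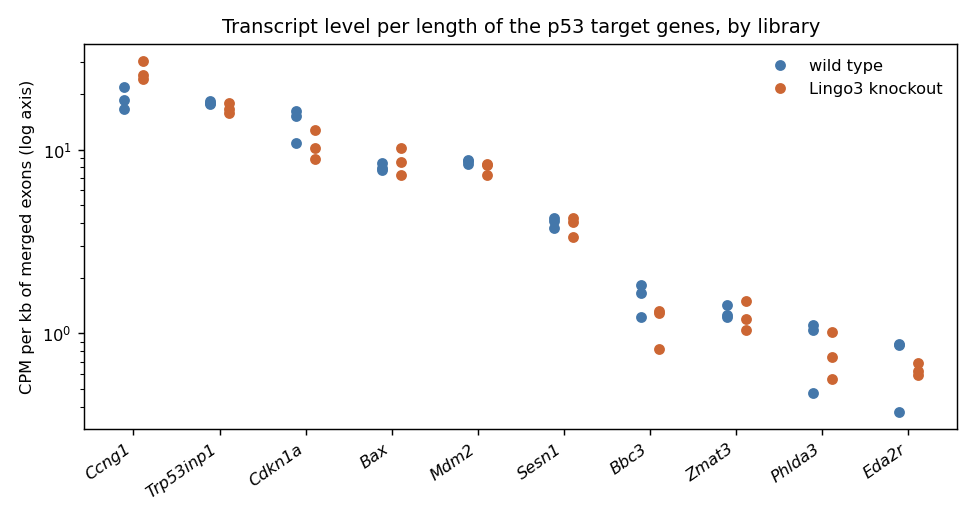
Level per length of the 10 p53 target genes (CPM per kilobase of merged exons, log axis), 1 point per library, wild type in blue and Lingo3 knockout in orange, ordered by the mean over 6 libraries. The means fall from 22.8 for Ccng1 to 0.670 for Eda2r.

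The members differed in which library was high or low. Knockout replicate 2 was the lowest library for 7 of the 10 genes, and the same count over all genes was not made. Ccng1 was the 1 member above its own mean there, and the median deviation of the members in it was -0.19 on the log2 scale, against 0.01 for all genes. Wild type replicate 3 was the lowest for the other 3, Ccng1, Eda2r and Phlda3. In that library Eda2r lay 0.76 and Phlda3 0.67 below its own mean on the log2 scale, whereas Cdkn1a lay 0.43 above. Wild type replicate 2 was the highest library for 4 genes and knockout replicate 3 for 3.

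The spread between replicates also differed by gene. The biological coefficient of variation in the edgeR fit was 15.6% for Cdkn1a, higher than in 95.5% of the 200 genes nearest to it in level, whose median was 9.99%. Ccng1 had 11.7%, above 80.0% of its neighbours in level. Trp53inp1 had 9.66%, above 10.5% of its neighbours, and Mdm2 9.48%, above 28.5%. The members lowest in CPM were Phlda3 at 25.8%, Bbc3 at 18.8% and Eda2r at 23.7%. They were above 84.5%, 60% and 88.5% of their neighbours in level.

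**Figure D4:**
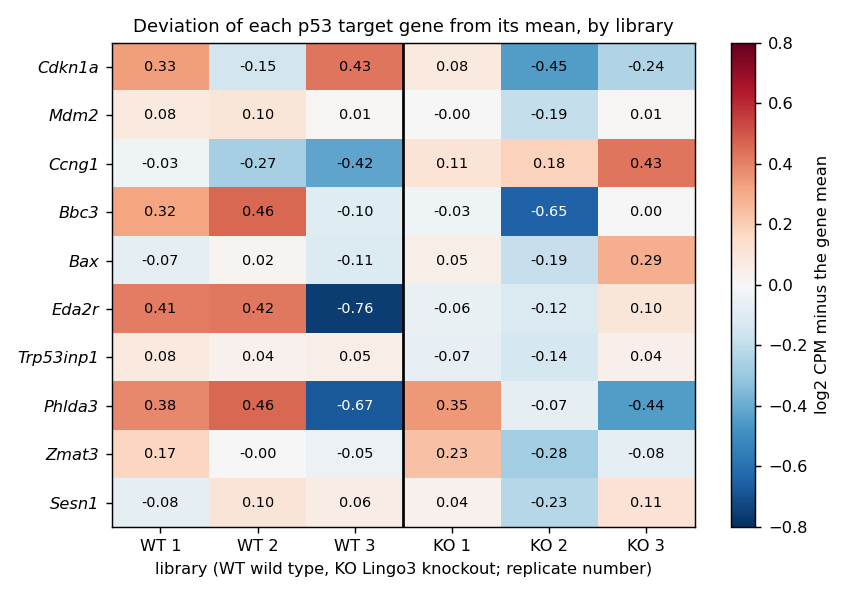
Deviation of each p53 target gene from its own mean over the 6 libraries (log2 CPM, red above and blue below, value printed in each cell), with wild type (WT) left and knockout (KO) right of the line. Ccng1 runs from -0.42 in wild type replicate 3 to 0.43 in knockout replicate 3, while Mdm2 and Trp53inp1 stay within 0.19 of their means.

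The gene of p53 itself, Trp53, did not pass the test. It stood at 11.5, 15.8 and 14.3 CPM in wild type and 15.3, 14.6 and 13.04 CPM in knockout replicates 1, 2 and 3, with overlapping groups and a log2 difference of 0.05 ± 0.13 (SE; edgeR adjusted p = 0.834). Of 21 genes for p53, its relatives and its regulators, 18 were tested, of which 1 rose, 1 fell and 16 did not pass (11.1% called, with 15.4% of all genes). Chek1, the gene of a checkpoint kinase that answers stalled replication, rose from 3.43 ± 0.520 to 5.65 ± 0.565 CPM (SD, n = 3), with a log2 difference of 0.73 (edgeR adjusted p = 0.0227). Ep300, the gene of an acetyltransferase that p53 recruits, fell from 86.1 ± 9.01 to 67.9 ± 4.19 CPM (SD, n = 3), with a log2 difference of -0.34 (edgeR adjusted p = 0.0444). Each of these calls was kept in 1 of the 6 fits that left out 1 library, with a highest edgeR adjusted p of 0.0751 for Chek1 and 0.178 for Ep300. With library totals only, Ep300 stood at -0.05.

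A wider list of 43 other p53 target genes held 40 tested genes, of which 1 rose, 4 fell and 35 did not pass (12.5% called, with 15.4% of all genes). Its median log2 fold change was -0.04, with -0.03 over all genes. Among the genes for cell cycle arrest, Btg2, an antiproliferative cofactor of mRNA deadenylation, fell from 161 ± 24.9 to 102 ± 17.7 CPM (SD, n = 3), with a log2 difference of -0.65 (edgeR adjusted p = 0.0129). Gadd45a, a growth arrest gene induced by DNA damage, fell by 0.42 on the log2 scale (edgeR adjusted p = 0.0427). Among the apoptosis genes, the death receptor gene Fas fell from 10.1 ± 0.741 to 7.06 ± 0.889 CPM (SD, n = 3), with a log2 difference of -0.52 (edgeR adjusted p = 0.0310). Cyfip2, the gene of a subunit of the WAVE actin regulatory complex, fell from 20.1 ± 2.36 to 9.54 ± 2.17 CPM (SD, n = 3), with a log2 difference of -1.08 (edgeR adjusted p = 0.00288). Ei24, the gene of an endoplasmic reticulum protein of autophagy, rose from 37.2 ± 3.80 to 48.0 ± 0.822 CPM (SD, n = 3), with a log2 difference of 0.37 (edgeR adjusted p = 0.0265).

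Of these 5 calls, that of Cyfip2 was kept in all 6 fits that left out 1 library and that of Btg2 in 5, lost without knockout replicate 2 (edgeR adjusted p = 0.0522). Ei24 kept its call in 2 of them and Gadd45a and Fas in 1 each, and without knockout replicate 2 the list held 1 call in place of 5. Gadd45a and Fas also did not pass with library totals only, nor Ei24 with upper-quartile scaling, nor Gadd45a by DESeq2 or limma-voom. Of the tested genes for metabolism and redox balance, 0 of 10 passed by edgeR (1 at an unadjusted p under 0.05). The same held for DNA repair and nucleotide supply, with 0 of 7 (1 unadjusted), and for feedback on p53, with 0 of 4 (0 unadjusted). Over all genes tested 15.4% passed (31.2% unadjusted), and groups this small can hold 0 calls at that share. Of the tested genes for cell cycle arrest 22.2% passed, and of those for apoptosis 30%. The difference between these groups was not tested. Lymphocytes also express Fas, Btg2 and Cyfip2. The 14 of 16 T cell markers that were lower, with their summed level of 362 to 417 CPM in wild type and 127 to 224 CPM in knockout, moved in the same direction as these 3 genes, and their part in the falls was not tested.

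Of 16 genes that share a family with a member, or belong to the ectodysplasin system of Eda2r, 14 were tested. By edgeR 0 passed, beside 15.4% of all genes, and 1 had an unadjusted p under 0.05, beside 31.2% of all genes, with a median log2 fold change of -0.19. The cyclin G2 gene Ccng2, the relative of Ccng1, stood at 188 ± 26.4 and 165 ± 29.2 CPM (SD, n = 3) in wild type and knockout (log2 fold change -0.19, edgeR adjusted p = 0.403). Cdkn1b, the gene of the p21 relative p27, had a log2 difference of -0.17 (edgeR adjusted p = 0.406). Sesn2 and Sesn3, the other sestrin genes, had -0.15 and -0.24 (edgeR adjusted p = 0.497 and 0.199).

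Of 16 BCL2 family genes that act with Bbc3 and Bax, 13 were tested, of which 0 rose and 2 fell (15.4% called, the same share as over all genes). Bmf, the gene of a BH3-only protein that promotes death, fell from 12.0 ± 0.675 to 7.88 ± 1.65 CPM (SD, n = 3), with a log2 difference of -0.62 (edgeR adjusted p = 0.0210), and lost its call without wild type replicate 2 or knockout replicate 2 (highest edgeR adjusted p = 0.0824), and it did not pass with library totals only. Bcl2a1d, an anti-apoptotic gene of blood cells with near-identical copies, was at 1.26 ± 0.421 and 0.491 ± 0.186 CPM (SD, n = 3), with a log2 difference of -1.30 (edgeR adjusted p = 0.0456) that was kept in 1 of 6 fits without a library, and reads of such copies could be split between them. The 14 of 16 T cell markers (summed level of 362 to 417 CPM in wild type and 127 to 224 CPM in knockout) and 5 of 9 B cell and plasma cell markers (59.4 to 119 CPM and 31.4 to 38.4 CPM) were also lower in knockout, and their part in this value was not tested. The other pore-forming genes of the list, Bak1 and Bok, did not pass. Bak1 stood at 25.3 ± 1.05 and 27.1 ± 3.87 CPM (SD, n = 3) in wild type and knockout, and Bok at 8.78 ± 0.234 and 10.5 ± 1.52 CPM (SD, n = 3).

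The DREAM complex is known to repress cell cycle genes when p21 is active. Of 12 such genes tested, 8 rose, 0 fell and 4 did not pass (66.7% called, with 9.43% of all genes higher and 15.4% called in either direction), and the median log2 fold change was 0.59. Ccna2, the gene of cyclin A2, rose from 16.2 ± 1.37 to 33.3 ± 5.20 CPM (SD, n = 3), and Ccnb2, that of cyclin B2, from 10.1 ± 1.503 to 19.2 ± 2.06 CPM (SD, n = 3). Cdc20, the activator of the anaphase-promoting complex, rose by 0.88 on the log2 scale (edgeR adjusted p = 0.00191). Ccnb1, Kif23, Cdc25c and Foxm1 did not pass, with log2 fold changes of 0.62, 0.30, 0.23 and -0.05. Without wild type replicate 3 or knockout replicate 2, 5 of the 12 rose. In these bulk libraries more dividing cells and more RNA per cell cannot be told apart. Cdkn1a itself did not pass, and a part of p21 in these rises was not tested. The list was chosen with earlier results of these libraries known, and the difference between the lists was not tested.

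**Figure D5:**
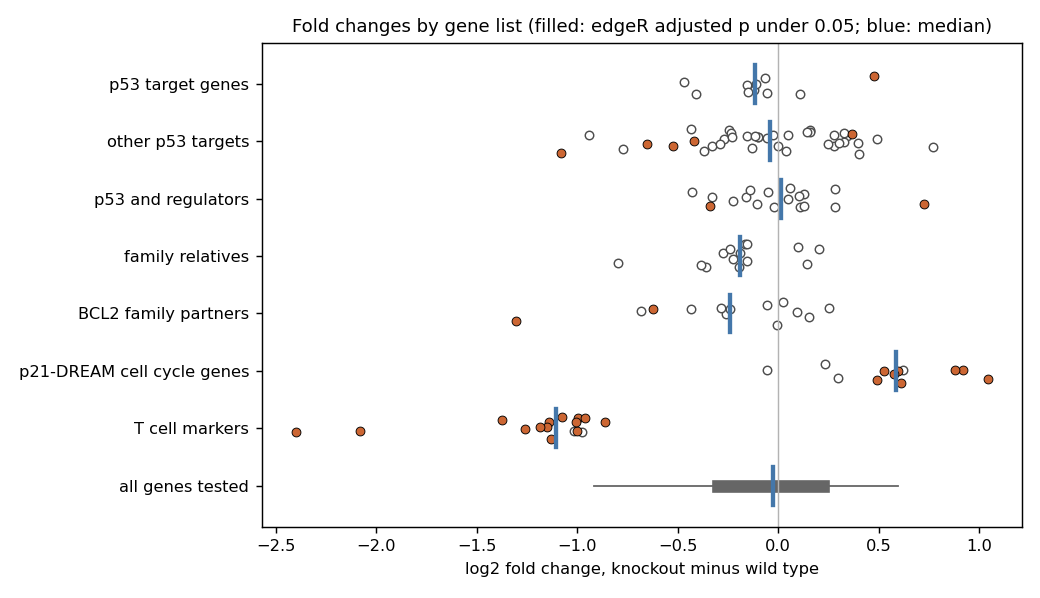
Log2 fold change (knockout minus wild type, horizontal axis) of each tested gene in the p53 target set, 5 related lists and the T cell markers, filled where the edgeR adjusted p was under 0.05, with the median of each row in blue. The bottom row gives all 16856 genes tested as the 25th to 75th percentiles (thick, -0.30 to 0.22) and the 5th to 95th (thin, -0.92 to 0.59), and 7 of the 10 p53 target genes lie within the thick range.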

How the data were processed

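The count table holds whole-number read counts per Ensembl gene, deposited by the authors without normalization; the submitters' processing notes list GRCm38, DESeq2, HTSeq, STAR and Trimmomatic 0.39. Other versions and the strand setting were not given in the sources used here. Per the file headers, the authors' comparison table gives a DESeq2 log2 fold change, its Wald score, p-values and, as signal columns, counts divided by 1 factor per library. HTSeq summary lines, which hold what was not assigned to a gene, were left out. They made up 53.6 to 60.1% of the total of these lines and the gene counts. With edgeR 4.0.16 in R 4.3.3, genes were kept by filterByExpr (minimum count 10, total 15), scaled by TMM and tested by the robust quasi-likelihood test with genotype as the only term, 2-sided, at an adjusted p under 0.05. Standard errors and 95% intervals come from its F statistic. The method was tested on simulated counts. Log2 CPM used a prior count of 2. The alternatives were 3 other scalings, DESeq2 1.42.0, limma 3.58.1 (voom), 2 other filters, nuclear protein-coding genes only, a replicate block and each library left out. Named were all members, Trp53, Mdm4, up to 6 called genes per pathway list with the smallest adjusted p, and the 5 profiles nearest to Cdkn1a. A few list genes that did not pass, and the 3 examples of the DREAM list, were named after their values were seen. Members and lists were chosen with earlier results of these data known. Gene models are GENCODE M21, which holds 45143 of the 46078 identifiers, and promoter windows are RefSeq's.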

Additional observations from a re-analysis of the deposited data

How the results depend on the processing

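Of 150 refits of single members, 127 kept direction and call. Ccng1 was higher in all 15 alternatives and past the threshold in 12. With library totals only, 5835 genes (34.6%) were called in all (92.8% higher, against 61.2%). They included 2 members (Ccng1 and Bax) and 18 of 40 other p53 targets tested. The log2 fold changes of Mdm2 (0.16), Eda2r (0.13), Trp53inp1 (0.17), Phlda3 (0.14), Zmat3 (0.22) and Sesn1 (0.23) turned positive, with the median of all genes at 0.26. With upper-quartile scaling 45.4% of calls were higher. With no filter, 2 members (Ccng1 and Cdkn1a) and 9 of 42 other targets tested were called, beside 3655 of 29129 genes (12.5%). Leaving out 1 library gave 1124 to 2686 calls over all genes, 0 to 1 among the members and 1 to 5 among the other targets. Without 1 library, 5 of the members changed sign in some fit, with log2 fold changes from -0.010 to 0.23 for Bax, -0.44 to 0.057 for Eda2r, -0.43 to 0.091 for Phlda3, -0.22 to 0.057 for Zmat3 and -0.12 to 0.049 for Sesn1. The cause of these changes was not tested. The replicate numbers showed no sign of pairing the libraries: same-numbered libraries had correlations of deviations from -0.12 to -0.01, and 0 of 6 libraries correlated best with its own number. With 3 libraries per group, this check cannot settle whether they are paired. With the number as a replicate block, 2061 genes and 2 members were called, Cdkn1a at an adjusted p of 0.0429 joining Ccng1, while Gadd45a, Fas and Ep300 did not pass. The least counted members, Phlda3, Bbc3 and Eda2r, had the widest intervals, and the part of depth in this was not tested.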
